A study of Mus musculus with 5 samples.

Results

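The growth hormone, IGF and FGF21 axis of liver was followed through 10 genes. They were taken by symbol from a table of 33589 rows and consist of the growth hormone receptor, its feedback inhibitor Socs2, Igf1, the partners that carry IGF1 in blood (Igfals and Igfbp1 to Igfbp4), and the hormone gene Fgf21 with the coreceptor gene Klb. All 10 symbols were found, each in 1 row. RNA-seq of whole liver gave 5 libraries. The 2 controls were labelled Hegfl/fl, with a floxed gene (Heg1 in the series title) and no Cre, and the 3 knockouts Lyve1-Cre;Hegfl/fl, with the same floxed allele and a Cre driven by Lyve1, a gene of lymphatic and liver sinusoidal endothelial cells. All were males of 6 weeks at the start of a high-fat diet that lasted 4 weeks, so no group on another diet or without the floxed allele was compared. The labels give neither feeding state nor hour of death, and do not say that each library came from a separate animal. SDs and p-values therefore measure the spread between these libraries, which may be technical.

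Growth hormone binds GHR on hepatocytes and acts through the kinase JAK2 and the factor STAT5B to induce Igf1, Igfals and Socs2. Secreted IGF1 circulates mainly in a ternary complex with IGFBP3 and the acid-labile subunit encoded by Igfals. The smaller binding proteins carry the rest, and Igfbp1 is known as a target of FOXO1 that insulin represses. FGF21 is a hepatokine induced through PPARα and ATF4 and needs β-Klotho, the product of Klb, beside an FGF receptor. The comparison asks how this axis stood in liver on a high-fat diet when Lyve1-Cre was combined with floxed Heg1.

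Promoter windows from 250 bases before to 50 bases after the start were available for 9 of the 10 genes, in 13 windows of RefSeq on GRCm38.p6, the assembly also called mm10. Socs2 had no window. Each window was searched on both strands for 6 motifs. These were the STAT5 palindrome, the FOXO core, the insulin response element core, the ATF4 composite element, the E-box and the TATA box. No PPARα element was searched. The 3 windows below are shown because they hold the motifs of the regulators that the results on these genes are read beside. Motifs are in capitals and the sequences run 5′ to 3′ on the gene's strand.
Igfbp1 promoter, chr11:7197537-7197836, plus strand: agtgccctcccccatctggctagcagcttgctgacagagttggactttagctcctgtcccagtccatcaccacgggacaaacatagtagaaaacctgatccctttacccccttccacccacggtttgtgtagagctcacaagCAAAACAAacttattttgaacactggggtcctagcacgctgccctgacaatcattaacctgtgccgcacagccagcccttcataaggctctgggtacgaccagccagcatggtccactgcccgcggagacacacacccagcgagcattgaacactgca
Igfals promoter, chr17:24877981-24878280, plus strand: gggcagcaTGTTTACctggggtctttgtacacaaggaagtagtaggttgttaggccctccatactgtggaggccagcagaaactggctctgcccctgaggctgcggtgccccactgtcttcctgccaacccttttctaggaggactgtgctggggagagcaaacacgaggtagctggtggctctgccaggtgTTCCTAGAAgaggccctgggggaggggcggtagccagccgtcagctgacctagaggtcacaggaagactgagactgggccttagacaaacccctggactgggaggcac
Fgf21 promoter, chr7:45615441-45615740, minus strand: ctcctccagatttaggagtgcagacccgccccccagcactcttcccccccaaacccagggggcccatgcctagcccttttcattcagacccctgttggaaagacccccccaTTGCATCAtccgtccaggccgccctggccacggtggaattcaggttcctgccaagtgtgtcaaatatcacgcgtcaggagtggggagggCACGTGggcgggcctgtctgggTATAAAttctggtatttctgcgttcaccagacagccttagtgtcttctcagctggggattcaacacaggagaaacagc
In the Igfbp1 window the capitals mark CAAAACAA, the core of the insulin response element, 108 bases upstream of the start. Of 32851 promoter windows 2.51% hold these letters on either strand. In the Igfals window they mark TTCCTAGAA, a match to the STAT5 palindrome TTCNNNGAA 58 bases upstream, and TGTTTAC, the reverse complement of the FOXO core GTAAACA, 242 bases upstream. The palindrome occurs in 8.3% and the FOXO core in 3.65% of all windows, and a second Igfals window holds the palindrome as TTCTCAGAA. In the Fgf21 window they mark TTGCATCA, the reverse complement of the ATF4 composite element TGATGNAA found in 3.97% of windows, an E-box CACGTG (7.15%) and a TATA box TATAAA (13.6%). The searched motifs did not overlap each other in these windows. A match is a run of letters and not a measured site.

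The libraries had FPKM sums (fragments normalised for transcript length and library size) between 797692 and 820498 and between 10614 and 10945 genes with at least 1 FPKM. Depth is unknown. Heg1 itself was low and measured 0.48 and 0.35 FPKM in controls, against 0.45, 0.43 and 0.50 in knockouts, so the whole-liver value does not check the labels. Hepatocyte markers were abundant in every library, with 14 genes summing to between 94130 and 111300 FPKM. Of 17 sinusoidal endothelial markers each exceeded 0.1 FPKM in at least 1 library, and they summed to 245 and 210.4 in controls and 272, 202 and 216 in knockouts. Knockout 1 stood apart in blood content, with 10 erythrocyte markers at 1761 FPKM against 164 to 312 in the other libraries. Hbb-bs and Hbb-b1 held identical values in every library (423 FPKM in knockout 1), so these sums count the same value more than once. Of 9 pancreas markers 8, and of 7 adipocyte markers 4 (Adipoq, Plin1, Lep and Retn), were at 0 in all libraries. In whole liver, fewer cells of a type and less RNA per cell cannot be told apart.

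No gene of the axis differed between the genotypes beyond the spread of the libraries. With limma on log2(FPKM + 1) and Benjamini-Hochberg adjustment over all genes, 0 of the 10 passed 0.05, and 0 of the 10 had an unadjusted p under 0.05. The adjusted p ranged from 0.762 for Igfbp3 to 0.997 for Ghr. Of all 10820 genes tested 0.00% passed, and 7.00% had an unadjusted p under 0.05. FPKM of the groups overlapped for each of the 10 genes, whereas the groups were apart for 25.3% of all genes tested, and for 24.0% at the lower filter of 0.1 FPKM that was needed for Fgf21. The log2 fold change (knockout minus control) was above 0 for 7 of the 10 genes, against 64.2% of all tested. Its median was 0.11 over the 10 genes and 0.06 over all.

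**Figure D1:**
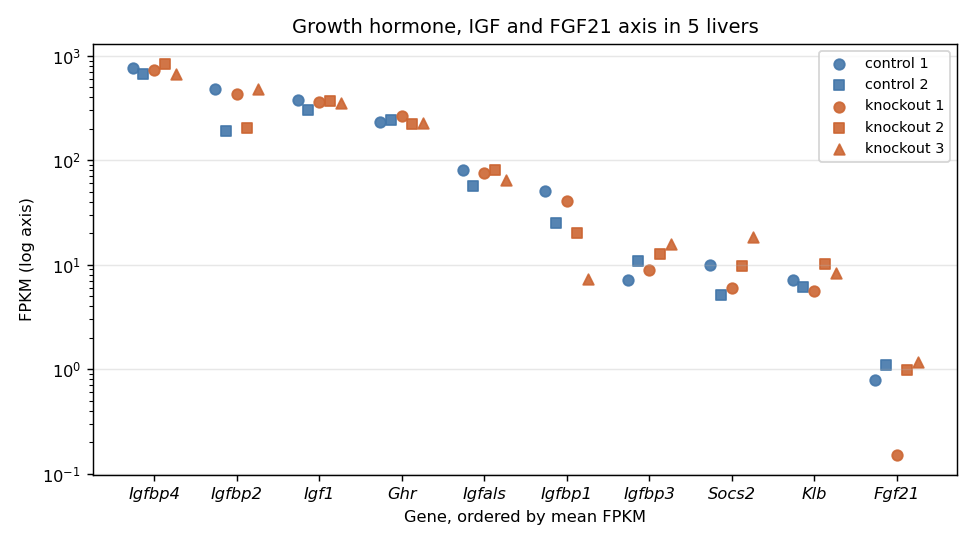
FPKM (log axis) of the 10 genes, ordered by mean, in the 2 control libraries (blue) and 3 knockout libraries (orange), 1 point per library. The colours overlap for every gene, and the points of Igfbp2, Igfbp1, Socs2 and Fgf21 spread most widely.

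The levels differed widely between the genes. FPKM divide by transcript length, so genes can be set side by side on this scale, but only roughly. The lengths used are not known, and annotated coding transcripts run from 510 to 7052 nt for Igf1 and from 489 to 3831 nt for Igfbp4. Igfbp4 was the most abundant, with a mean of 737 FPKM over the 5 libraries, and its lowest library (664) lay above the highest of any other gene of the axis. Igfbp2 and Igf1 followed with means of 359 and 354 FPKM. They overlapped, Igfbp2 being above Igf1 in 3 of 5 libraries. Ghr (mean 236) and Igfals (71.9) came next, with ranges that did not overlap those of the genes ranked directly before and after. The range of Ghr lay within that of Igfbp2, which was below Ghr in control 2 and knockout 2. Igfbp1 (29.0), Igfbp3 (11.04), Socs2 (9.87) and Klb (7.47) overlapped one with the next. Fgf21 was lowest, at a mean of 0.838, below the other 9 genes in every library.

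Ghr (chromosome 15, 3317760 to 3583492, minus strand) encodes the receptor at the head of the axis. It measured 231 and 240.5 FPKM in controls, against 263, 221 and 225 in knockouts. The controls lay between the highest and the lowest knockout. The group means were 236 ± 6.38 FPKM (SD, n = 2) and 236 ± 23.3 FPKM (SD, n = 3), a log2 difference of -0.0022 ± 0.11 (SE) with 95% confidence limits of -0.26 and 0.26 (limma adjusted p = 0.997). On the FPKM + 1 scale that interval runs from 0.832-fold to 1.2-fold. The signalling partners of the receptor, chosen after their values were seen, lay below Ghr in FPKM. Jak2 averaged 2.80 ± 0.71 FPKM in controls and 2.74 ± 0.20 in knockouts. Stat5b had 9.64 ± 0.42 and 10.7 ± 1.63 FPKM, and the groups overlapped for both genes.

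Socs2 (chromosome 10, 95385362 to 95417180, minus strand) is induced by STAT5 and shuts the receptor off. It measured 9.98 and 5.13 FPKM in controls, against 6.01, 9.74 and 18.5 in knockouts. Knockout 3 alone lay above both controls, and knockouts 1 and 2 lay between them. On the log2 scale the difference was 0.47 ± 0.44 (SE), with 95% confidence limits of -0.60 and 1.54 (limma adjusted p = 0.821), and it was 0.0808 without knockout 3, 0.0495 without control 2 and 0.89 without control 1. Socs2 differed 3.6-fold between its highest and lowest library.

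Among the receptor signalling genes named here Cish, Onecut1, Socs3 and Stat5b were highest in knockout 3, as was Socs2. Stat3 was highest in knockout 2 and Jak2 in control 2. Cish, a further STAT5-induced inhibitor, measured 3.29 and 2.70 FPKM in controls, against 1.58, 8.74 and 26.8 in knockouts, so that the knockouts lay on both sides of the controls. Onecut1, which encodes HNF6, a liver factor responsive to growth hormone, measured 11.2 and 11.4 FPKM in controls, against 7.68, 24.7 and 31.2 in knockouts. Knockout 1 was the lowest of the 5 libraries for both genes and knockout 3 the highest. Socs3, which is induced by STAT3 and cytokines as well, measured 2.76 and 2.16 FPKM in controls, against 4.68, 3.37 and 6.31 in knockouts. Its groups did not overlap, and the log2 fold change was 0.72 (SE 0.23, limma adjusted p = 0.7). Of the 15 genes listed for growth hormone receptor signalling 13 were tested and 0 passed in either direction. The log2 fold change was above 0 for 12 of them, against 64.2% of all genes. Its median was 0.14 (0.272 without control 2), against 0.06 over all genes. Groups were apart for 3 (23.1%), Socs3, Stat3 and Ptpn11, against 25.3% of all genes. Stat3 averaged 24.9 ± 3.92 FPKM in controls and 32.0 ± 4.82 in knockouts (limma adjusted p = 0.716).

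**Figure D2:**
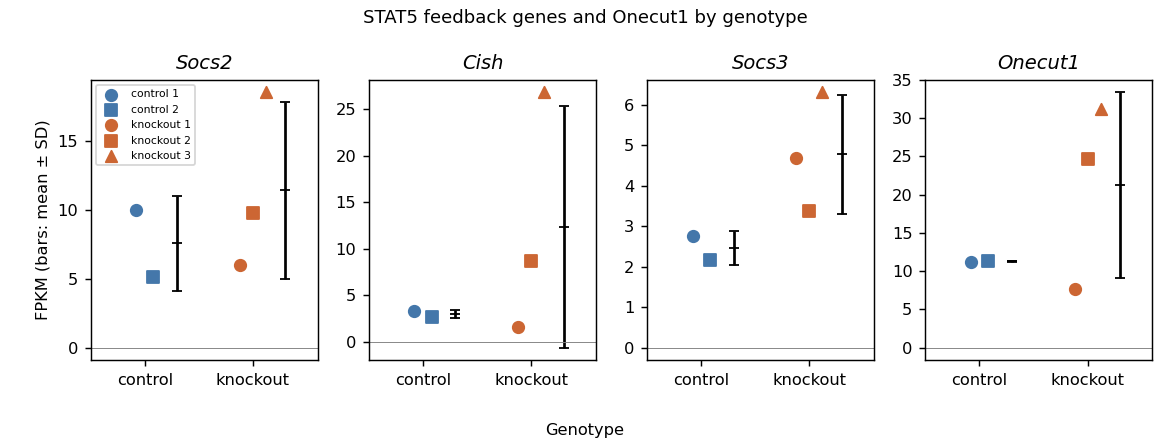
FPKM of Socs2, Cish, Socs3 and Onecut1 by genotype, 1 point per library, with the mean ± SD of the 2 controls and 3 knockouts beside the points. Knockout 3 (triangle) is highest in each panel, at 18.5, 26.8, 6.31 and 31.2 FPKM, and only Socs3 has groups that do not overlap.

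Igf1 (chromosome 10, 87858265 to 87937042, plus strand), the main endocrine product of the axis, was among the steadiest of the 10 genes. It measured 378 and 304 FPKM in controls, against 361, 372 and 356 in knockouts. The controls were the highest and the lowest library, and the 3 knockouts lay between them. Knockouts minus controls gave a log2 difference of 0.098 ± 0.12 (SE), with 95% confidence limits of -0.18 and 0.38 (limma adjusted p = 0.851). The interval runs from 0.883-fold to 1.3-fold, and the value was -0.0584 without control 2 and 0.255 without control 1. Igf1os is annotated on the opposite strand of Igf1, and no source used here says if reads were assigned by strand. No gene overlaps the other 9 in GENCODE M21.

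By the root mean square difference of log2(FPKM + 1), centred over the 5 libraries, the profiles closest to Igf1 were those of Stat6 (0.0058), Exosc10 (0.0071) and Pigg (0.0128). As many as 936 of 10819 genes lay within 0.1 of it, so that the flat profile of Igf1 was a common one. Fgf21 had 4 such neighbours among 14400 genes, the nearest being Hpcal1 (0.0597), Wfdc1 (0.096) and Neurl2 (0.0993). Hpcal1 measured 8.53 and 10.2 FPKM in controls, against 5.73, 9.68 and 10.2 in knockouts, with knockout 1 lowest as for Fgf21.

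Igfals (chromosome 17, 24865997 to 24882010, plus strand), whose window with a STAT5 palindrome is shown above, varied in the same order as Igf1 at the extremes. It measured 81.2 and 56.5 FPKM in controls, against 76.1, 80.6 and 65.0 in knockouts. Again the controls were the highest and the lowest library. The log2 fold change was 0.12 ± 0.18 (SE), with 95% confidence limits of -0.31 and 0.54 (limma adjusted p = 0.881), and it was -0.141 without control 2 and 0.374 without control 1. Within a library the FPKM of Igf1 were between 4.62 and 5.48 times those of Igfals. The log2 ratio of Igf1 to Igfals, each with 1 FPKM added, differed by -0.0184 between knockouts and controls (exact two-sided permutation p = 0.9 over 10 splits, where 0.1 is the smallest p that can be reached).

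Among the binding proteins Igfbp1 (chromosome 11, 7197782 to 7202546, plus strand) had the widest range. It measured 51.3 and 25.3 FPKM in controls, against 41.1, 20.04 and 7.29 in knockouts. Knockouts 2 and 3 lay below both controls and knockout 1 between them. The group means were 38.3 ± 18.4 and 22.8 ± 17.1 FPKM. On the log2 scale the difference was -0.93 ± 0.65 (SE), with 95% confidence limits of -2.51 and 0.64 (limma adjusted p = 0.777), a span from 0.176-fold to 1.56-fold that leaves the size of the difference undetermined. It was below 0 in each alternative computation, and between -1.49 without knockout 1 and -0.318 without knockout 3.

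Igfbp3 (chromosome 11, 7206086 to 7213923, minus strand) is the neighbour of Igfbp1 on the chromosome, the ends of both genes lying 3539 bases apart. It differed in the opposite direction and measured 7.12 and 10.9 FPKM in controls, against 8.95, 12.6 and 15.7 in knockouts. Knockouts 2 and 3 lay above both controls and knockout 1 between them. Knockouts minus controls gave a log2 difference of 0.41 ± 0.26 (SE), with 95% confidence limits of -0.20 and 1.03, with the smallest limma adjusted p of the 10 genes, 0.762, and it was 0.135 without control 1 and 0.69 without control 2. In liver Igfbp3 is known mainly from cells other than hepatocytes. Beside it, 14 Kupffer cell markers summed to 333 and 557 FPKM in controls and 441, 571 and 532 in knockouts, lowest in control 1 as was Igfbp3. The 15 stellate and fibroblast markers summed to between 207 and 302 FPKM. Their part in the result was not tested. Per library the FPKM of Igfbp3 were 0.139 and 0.432 times those of Igfbp1 in controls and 0.218, 0.627 and 2.15 times in knockouts, so that knockout 3 was the only library with more Igfbp3 than Igfbp1.

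Igfbp2 (chromosome 1, 72824503 to 72852474, plus strand), an IGF carrier of which liver is a main source, fell into levels that did not follow genotype. It measured 486 and 189.8 FPKM in controls, against 433, 202 and 486 in knockouts. Control 1 and knockouts 1 and 3 were high, and control 2 and knockout 2 were low. Knockouts minus controls gave a log2 difference of 0.20 ± 0.50 (SE), with 95% confidence limits of -0.99 and 1.39 (limma adjusted p = 0.933), and its sign turned with the library left out, from -0.477 without control 2 to 0.874 without control 1. Igfbp4 (chromosome 11, 99041244 to 99054392, plus strand) was steady and measured 765 and 664 FPKM in controls, against 735, 843 and 676 in knockouts. Its log2 difference was 0.071 ± 0.13 (SE), with 95% confidence limits of -0.23 and 0.38 (limma adjusted p = 0.9).

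Igfbp4 and Igfbp2 made up most of the binding protein transcripts. Summed over the 4 genes these were 1309 and 889.8 FPKM in controls, against 1218, 1077 and 1185 in knockouts, so the knockouts lay between the controls. The log2 difference of the sum was 0.10 (exact two-sided permutation p = 0.8 over 10 splits). Igfbp4 held between 57.1% and 78.3% of the sum and Igfbp2 between 18.7% and 41.0%. Igfbp1 held 3.92% and 2.85% in controls and 3.38%, 1.86% and 0.615% in knockouts, and Igfbp3 at most 1.32%. The FPKM of Igf1 were 7.37 and 12 times those of Igfbp1 in controls and 8.78, 18.6 and 48.8 times in knockouts. The log2 ratio, with 1 FPKM added to each gene, differed by 1.03 (3.196 ± 0.48 in controls, 4.23 ± 1.16 in knockouts). The groups overlapped, with knockout 1 between the controls and knockouts 2 and 3 above both. The exact two-sided permutation p was 0.4 over 10 splits, where 0.1 is the smallest p that can be reached. A difference of any size would therefore miss the threshold used for genes, and no conclusion is drawn from this p. The log2 difference of the ratio was 0.43 without knockout 3 and 1.59 without knockout 1.

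**Figure D3:**
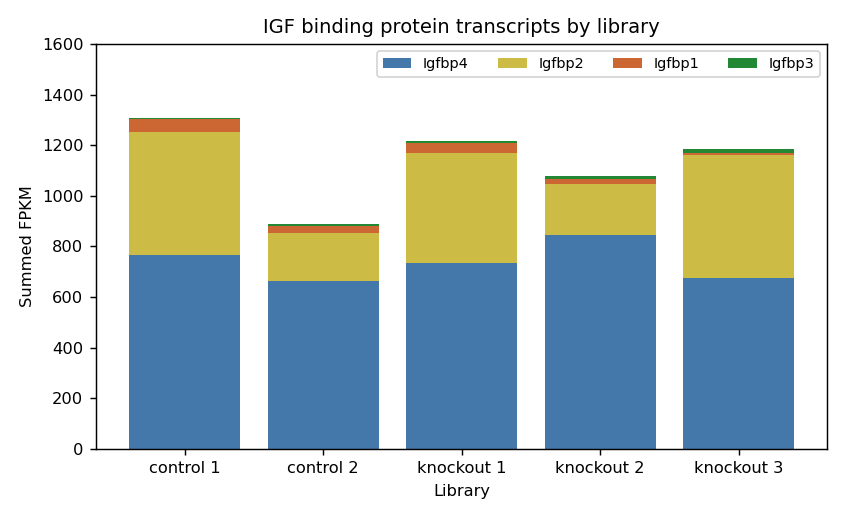
Stacked FPKM of Igfbp4, Igfbp2, Igfbp1 and Igfbp3 in each of the 5 libraries. The sum runs from 889.8 in control 2 to 1309 in control 1, and the Igfbp2 segment is small in control 2 and knockout 2.

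Fgf21 (chromosome 7, 45613886 to 45615490, minus strand) was low in every library. It measured 0.79 and 1.09 FPKM in controls, against 0.15, 0.99 and 1.17 in knockouts. Knockout 1 was lowest, and the other 4 libraries lay close together with knockout 3 highest. The log2 fold change was -0.18 ± 0.28 (SE), with 95% confidence limits of -0.86 and 0.50 (limma adjusted p = 0.899), from a fit over the 14401 genes with a mean of at least 0.1 FPKM. With 1 FPKM added, differences at this level are compressed, and with 0.1 FPKM added the value was -0.552. Without knockout 1 it turned to 0.104. Knockout 1 is the library with the high erythrocyte sum given above, and the part of blood in the value of Fgf21 was not tested.

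Klb (chromosome 5, 65348314 to 65384007, plus strand), which makes hepatocytes responsive to FGF19 family hormones, measured 7.18 and 6.11 FPKM in controls, against 5.63, 10.2 and 8.25 in knockouts. Knockouts 2 and 3 lay above both controls and knockout 1 below them. On the log2 scale the difference was 0.21 ± 0.23 (SE), with 95% confidence limits of -0.33 and 0.75 (limma adjusted p = 0.84), and 0.0383 without knockout 2. Fgfr4, the FGF receptor of hepatocytes and chosen after its values were seen, averaged 10.4 ± 1.12 FPKM in controls and 10.8 ± 2.51 in knockouts.

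**Figure D4:**
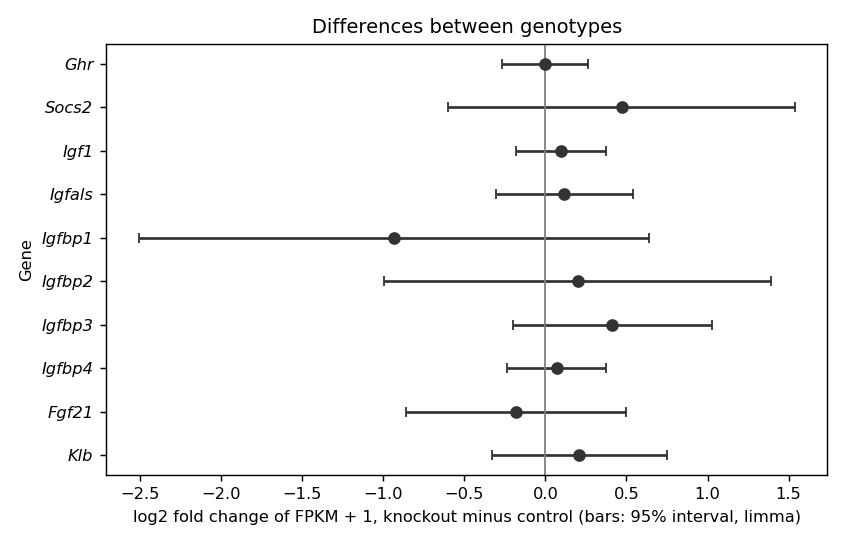
Log2 fold change (knockout minus control, of FPKM + 1) of the 10 genes with 95% intervals from limma. Every interval includes 0, and the intervals of Ghr, Igf1 and Igfbp4 are the narrowest while that of Igfbp1 runs from -2.51 to 0.64.

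The genes differed in how much libraries of 1 genotype varied. The SD of log2(FPKM + 1) within genotypes was 1.04 for Igfbp1, 0.79 for Igfbp2 and 0.70 for Socs2, against a median of 0.15 over the genes tested. These 3 were more variable than 99.6%, 99.0% and 98.7% of tested genes. Igfbp3 (0.38), Klb (0.32) and Igfals (0.25) exceeded 92.7%, 88.8% and 79.0%. Igfbp4 (0.16), Igf1 (0.13) and Ghr (0.12) exceeded 52.3%, 41.1% and 33.5%, in the middle of all genes or below. Fgf21, with 0.42, exceeded 94.3% of the genes in its own fit. Each of these SDs rests on 3 residual degrees of freedom.

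The library numbers in the labels form 2 runs, with control 1 and knockout 1 numbered 18668 and 18669 and the other 3 libraries between 18659 and 18663. What the numbers stand for is not stated. Within both runs Igfbp1 was lower and Igfbp3 higher in knockouts, while 7 genes differed in opposite directions. Fgf21 differed by -0.64 in the pair but by only -0.0083 among the other 3 libraries, with 1.09 FPKM in the control and a mean of 1.08 in knockouts. Igfbp3 was 0.29 higher on the log2 scale in the pair and 0.33 higher among the other 3 libraries. Igfbp1 differed by -0.31 and by -0.995. Socs2 differed by -0.65 and by 1.24. With the run as a term in the fit, limma gave Igfbp3 a log2 fold change of 0.316 with an adjusted p of 0.595, the smallest of the 10 genes in that fit.

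Other genes of the IGF system were sparse in these livers. Of 17 listed only 6 reached a mean of 1 FPKM, 0 passed in either direction and groups were apart for 1 (16.7%, against 25.3% of all genes), Igfbp7. This abundant binding protein of vascular cells averaged 80.2 ± 2.09 FPKM in controls and 85.6 ± 1.30 in knockouts (log2 fold change 0.094, limma adjusted p = 0.815). Igfbp6 measured 3.36 and 1.26 FPKM in controls, against 0.61, 0.74 and 1.62 in knockouts, with overlapping groups. The receptors Insr (16.1 ± 0.60 and 18.4 ± 2.88 FPKM) and Igf2r (4.91 ± 0.86 and 5.40 ± 0.20 FPKM) overlapped as well. Igf1r, chosen after its values were seen, measured 0.30 and 0.59 FPKM in controls, against 0.24, 0.24 and 0.25 in knockouts. Its groups were apart, as were those of 24.0% of all genes at the filter of 0.1 FPKM, with a log2 fold change of -0.21 ± 0.12 (SE, limma adjusted p = 0.783). Igf2, chosen in the same way, was apart in the other direction. It measured 0.03 and 0.07 FPKM in controls, against 0.15, 0.15 and 0.27 in knockouts (log2 fold change 0.18, limma adjusted p = 0.781). Both genes were low. The control mean of Igf2, 0.05 FPKM, lay under the filter of 0.1 FPKM. Igf2 therefore entered the fit only through the knockouts, where it was high.

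Regulators of FGF21 did not pass either. Of 18 listed FGF receptor and FGF21 regulator genes 16 were tested and 0 passed. The log2 fold change was above 0 for 13 (median 0.15), against 64.2% of all genes (median 0.06). Groups were apart for 1 (6.25%, against 25.3% of all genes), the nuclear receptor gene Rora at 4.84 ± 0.49 and 6.21 ± 1.16 FPKM. Ppara, the fatty acid sensor that induces Fgf21, had 30.3 ± 4.51 and 34.9 ± 1.26 FPKM. Creb3l3, a hepatic membrane-bound factor that acts with PPARα on Fgf21, had 157 ± 2.82 and 186 ± 24.4 FPKM. Fgfr1 had 3.85 ± 0.48 and 5.56 ± 1.83 FPKM. The groups of these 3 overlapped.

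Target genes of the same regulators were set beside Fgf21 and Igfbp1. Of 21 tested PPARα targets 0 passed. Groups were apart for 10 (47.6%), 8 of them lower in knockouts, where 6.38% of all genes were. Cyp4a14, a fatty acid hydroxylase, had 65.9 and 74.0 FPKM in controls and no knockout above 7.06. Acadm, which encodes a dehydrogenase of fatty acid oxidation, averaged 239 ± 9.87 FPKM in controls and 177 ± 5.85 in knockouts, and Acaa1b, a peroxisomal thiolase, averaged 382 ± 26.1 and 263 ± 31.5. Fads1, a desaturase, was apart in the other direction at 91.7 ± 2.99 and 145 ± 28.4 FPKM. Of 13 tested ATF4 targets 0 passed and groups were apart for 2 (15.4%, against 25.3% of all genes), Ddit3 (5.87 ± 0.35 and 7.29 ± 0.69 FPKM) and Sesn2 (2.30 ± 0.16 and 1.70 ± 0.58 FPKM). Ddit4 stood at 10.6 ± 3.61 and 5.69 ± 2.21 FPKM and Gdf15, a stress-induced hormone, at 2.38 ± 1.02 and 1.44 ± 0.70 FPKM, both with overlapping groups.

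Of 27 tested insulin signalling and FOXO1 target genes 0 passed, and groups were apart for 10 (37.0%, against 25.3% of all genes). Of these 5 were higher, where 18.9% of all genes were, and 5 lower, where 6.38% were. G6pc1, the catalytic subunit of glucose-6-phosphatase and a FOXO1 target like Igfbp1, measured 167 and 245 FPKM in controls, against 89.0, 54.1 and 33.9 in knockouts. Like Igfbp1 it was lowest in knockout 3, but unlike Igfbp1 its groups were apart (log2 fold change -1.86, SE 0.38, limma adjusted p = 0.675). Foxa2 had 11.8 ± 0.93 and 20.4 ± 5.72 FPKM, and Sesn3 2.88 ± 0.58 and 4.17 ± 0.44 FPKM.

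The sex-biased genes of liver are a known readout of the temporal pattern of growth hormone, and the direction of the Mup and male-biased genes was already known from earlier results of these data. Of 25 tested male-biased genes 0 passed and 24 had a log2 fold change above 0, against 64.2% of all genes. Their median was 0.38, against 0.06 over all genes. Groups were apart for 9 (36.0%), all higher, against 18.9% of all genes. The median was 0.681 without control 1 and 0.24 without control 2. Mup11 had 311 ± 101 and 664 ± 208 FPKM, Mup7 3892 ± 1057 and 6477 ± 864 FPKM, C6, a complement component, 97.8 ± 13.6 and 161 ± 38.6 FPKM, and Moxd1 0.92 ± 0.69 and 26.9 ± 17.5 FPKM. The control mean of Moxd1 lay under the filter of 1 FPKM. The gene was tested only through the knockouts, where it was high, yet it counts among the 24 and the 9. Reads of near-identical Mup genes can be split between copies, so their single values are uncertain. Of 28 listed female-biased genes only 10 reached a mean of 1 FPKM and were tested. Of these 0 passed and 9 had a log2 fold change below 0 (median -0.15), while 64.2% of all genes were above 0. Groups were apart for 1 of the 10 (lower in knockouts, as were 6.38% of all genes), Cyp2b9. It had 1.08 and 7.73 FPKM in controls and no knockout above 0.23. Its mean of 1.82 FPKM passed the filter through the controls alone, so its place among the tested genes depends on the group where it was high. The median of the list was -0.0398 without control 2, -0.355 without control 1, -0.431 without knockout 2 and turned to 0.0263 without knockout 1. Fmo1 had 121 ± 11.2 and 97.6 ± 15.9 FPKM, Cyp39a1 14.9 ± 0.18 and 10.2 ± 5.75, and Cyp2a5 335 ± 107 and 265 ± 18.1, all with overlapping groups. Whether the sex-biased lists differed from Igf1, Ghr and Socs2 in their response was not tested.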

How the data were processed

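Expression was measured by paired-end RNA-seq of total liver RNA. The authors deposited FPKM per gene symbol, rounded to 2 decimals, and per the submitters' processing notes used HISAT2, StringTie and DESeq2 with mm10. Their versions and roles, the annotation and strand use are not given in the sources used here. Both deposited tables hold the same values in 33589 of 33589 rows, and 1 was used. Groups came from the titles. Depth is unknown: in genes of 1 exon of 150 to 900 nt at most 36.6% of values fell on whole multiples (tolerance 0.1) of the best step, so reads were not recovered.

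The 10 genes and all lists were chosen with earlier results of these data known. Differences were tested with limma 3.58.1 in R 4.3.3 (trended prior variance, two-sided) on log2(FPKM + 1), over 10820 genes averaging at least 1 FPKM, with genotype as the only term and Benjamini-Hochberg adjustment at 0.05. Fgf21 (mean 0.838 FPKM), like the low genes Heg1, Igf1r and Igf2, needed a filter of 0.1 FPKM (14401 genes). The script was tested on simulated data. Groups are called apart when all 3 knockouts lie above, or all below, both controls. Sums and ratios were tested by exact permutation in Python 3.11.15. Of 8 pathway lists the up to 4 genes with the smallest p are named (1 gene so chosen is not reported here), besides the closest profiles of Igf1 and Fgf21, with gene positions from GENCODE M21 on GRCm38. Of 9 cell type marker lists the cholangiocyte list summed to between 36.1 and 81.8 FPKM and that of lymphocytes and neutrophils to at most 11.5. Among the list symbols 3 had no row (G6pc, listed also as G6pc1, Cml5 and Hbb-b2). Alternatives were other pseudocounts, filters, scalings, variance models, blocks, and each library left out.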

Additional observations from a re-analysis of the deposited data

How the results depend on the processing

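In all 15 alternatives (14 for Fgf21, which a filter of 5 FPKM removes) 0 of the 10 genes passed, and Socs2, Igfbp1, Igfbp3 and Klb kept their sign. Ghr turned to 0.0359 under quantile normalization, 0.0307 with the replicate block, 0.0166 with the library number block, and between -0.0816 and 0.0444 with a library left out. With a library left out Igf1 ranged from -0.0584 to 0.255, Igfals from -0.141 to 0.374, Igfbp2 from -0.477 to 0.874 (-0.0395 with the replicate block), Igfbp4 from -0.0316 to 0.173 and Fgf21 from -0.355 to 0.104. The count of the 10 genes with groups apart ranged from 0 to 5, being 5 without control 1 (all higher, 52.2% of all genes apart), 5 without control 2 (4 lower, 52.7%) and 4 without knockout 1 (40.4%). Their median ranged from -0.045 to 0.214, the summed binding proteins from -0.176 to 0.381, the Igf1 to Igfals ratio from -0.119 to 0.0826 and the Igf1 to Igfbp1 ratio from 0.43 to 1.59. With any of the knockouts left out, 0 of all genes passed. The fits without a control keep only 1 control library, so no count over all genes is given for them. With the replicate block, which uses the 4 libraries numbered 1 and 2 and leaves 1 residual degree of freedom, 5 genes passed, 2 of them in the male-biased list (Moxd1 and Mup11). Deviations of same-numbered libraries correlated at 0.23 and 0.20, but with only 2 pairs the numbers are not taken to pair the libraries. Of 120 medians of pathway lists 105 moved by less than 1 SD between libraries and 15 by more. Over all genes, those with an unadjusted p under 0.05 split into 572 higher and 185 lower, but 310 and 362 after median-of-ratios scaling and 279 and 321 after quantile normalization. The cause of these changes was not tested. Unknown depth limits what low genes such as Fgf21 can show.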

Other observations

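The nearest profiles to the 3 most variable genes of the axis were looked up after their values were seen, with the same measure of likeness. For each of the 3, 0 of 10819 genes lay within 0.1, so the nearest profiles are less like them than those named for Igf1 and Fgf21. Closest to Igfbp1 was Depp1, known as a FOXO-induced gene, at a root mean square difference of 0.276 on the log2 scale. Depp1 measured 85.7 and 55.7 FPKM in controls, against 52.7, 26.9 and 13.4 in knockouts, highest in control 1 and lowest in knockout 3 as was Igfbp1, and its 3 knockouts all lay below both controls. Next was Nr0b2 (0.367), the gene of the nuclear receptor SHP, which measured 63.5 and 42.8 FPKM in controls, against 38.2, 36.1 and 13.8 in knockouts. After it came Blm (0.435), with 17.4 and 9.73 FPKM in controls, against 14.9, 14.7 and 4.25 in knockouts.

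Closest to Igfbp2 were Cnmd (0.174), Fam3c (0.205) and Mgp (0.220). Fam3c measured 23.7 and 13.3 FPKM in controls, against 26.8, 14.0 and 29.1 in knockouts, low in control 2 and knockout 2 like Igfbp2. Apoa1, the main apolipoprotein of HDL, was low in the same 2 libraries and measured 14818 and 9951 FPKM in controls, against 14040, 9536 and 15530 in knockouts. Closest to Socs2 were Slc25a30 (0.145), Arid5b (0.174) and Rnf186 (0.196). Arid5b measured 8.73 and 6.43 FPKM in controls, against 6.79, 11.5 and 23.1 in knockouts, highest in knockout 3 as was Socs2. Each profile has 5 points chosen as the nearest of 10819 genes, so likeness here is a description and says nothing of shared control.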
